A study of Homo sapiens with 6 samples.

Results

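The retinoblastoma gene RB1 and its relatives RBL1 and RBL2 encode the pocket proteins. LIN9, LIN37, LIN52, LIN54 and RBBP4 encode subunits that assemble with pocket proteins into the DREAM complex, and MYBL2 encodes a later partner of these subunits. These 9 genes were chosen by name out of 18417 genes read by the arrays, and each was read by 1 probe set. Pocket proteins bind E2F transcription factors and hold their target genes silent in resting cells. In DREAM the pocket protein is RBL2 or RBL1, joined to E2F4 or E2F5 with a DP partner and to the MuvB core of LIN9, LIN37, LIN52, LIN54 and RBBP4. When cells enter the cycle the pocket protein leaves, and the same MuvB core takes up MYBL2, also called B-MYB, and switches on genes of mitosis.

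The 2 groups were 3 arrays of RB-deficient cells and 3 arrays of RB-proficient cells. Both were MCF10A, a human breast epithelial line that does not form tumours, marked in the titles as carrying the receptor tyrosine kinase ErbB2, and both had grown for 7 days in three-dimensional culture on reconstituted membrane. The titles tag the groups miRB and miNS, which the labels do not spell out, and nothing says that the replicates were separate cultures, so the spread behind each p-value may be technical. Values are given in the order of the replicate numbers and are log2 intensities of arrays brought to the same median, with a floor of 0, and differences are RB-deficient minus RB-proficient with n = 3 arrays per group. Levels of different genes are not compared, since probe sets differ in brightness.

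The arrays labelled RB-deficient were the more variable group, with a median SD per gene of 0.84 against 0.40 in the RB-proficient arrays. The share of genes at the floor was 4.71% in the array labelled RB-deficient 1, 1.62% in array 2 and 0.68% in array 3. In the RB-proficient arrays this share ran from 0.33% to 0.68%. Its part in the wider spread was not tested. Across genes, the array labelled RB-deficient 3 correlated with the RB-proficient arrays at Pearson's r of 0.83 to 0.88, and the arrays labelled RB-deficient 1 and 2 at 0.68 to 0.75. The arrays labelled RB-deficient correlated with one another at only 0.67 to 0.75, with the 0.67 between arrays 1 and 2. RB-proficient arrays correlated with one another at 0.90 to 0.92. Over all genes the median of the differences lay at −0.21, and at −0.09 after quantile normalization and −0.08 after centring. Of 6 measured markers of mammary epithelium, 5 were lower, 3 of them with no overlap (58.6% and 15.3% of all genes). EPCAM was higher with no overlap (difference 0.24, SE 0.46), as were 7.12% of all genes. The summed linear level of the 6 ran from 1936 to 2776 in arrays labelled RB-deficient and from 2799 to 5700 in RB-proficient arrays (TP63 and KRT17 were not analysed here). The highest sum, in RB-proficient array 3, rests largely on KRT5, at 11.65 on the log2 scale. The sums were 141 to 292 against 144 to 192 for 7 fibroblast markers, 307 to 360 against 477 to 598 for 5 endothelial markers and 202 to 252 against 336 to 462 for 5 leukocyte markers, and among these COL3A1 reached the floor in the array labelled RB-deficient 1. ACTB and GAPDH, which often serve as references, had differences of −1.92 and −1.23 with no overlap between groups. The labels name only the epithelial line MCF10A, so the sums for other cell types are not read as the presence of such cells. The part of these shifts in the results below was not tested. In such bulk RNA fewer cells making an RNA and less of it per cell cannot be told apart.

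The promoters of the DREAM subunit genes are shown because pocket proteins and DREAM act on DNA through 2 short elements. E2F proteins bind sites of the E2F type, searched here as TTNNCGN with C or G at each N, and LIN54 binds the CHR, the cell-cycle gene homology region, searched as TTTGAA and TTCGAA. Both strands were read in RefSeq windows of the GRCh38.p14 build that run from 250 bases before to 50 after a start, and matches are capitals in the lines that follow. The first 6 lines are the 100 bases before the gene start, 5′ to 3′ on the gene's strand, for RBL1 (chr20:37095998-37096097, minus), RBL2 (chr16:53434371-53434470, plus), LIN37 (chr19:35748476-35748575, plus), LIN52 (chr14:74084856-74084955, plus), RBBP4 (chr1:32651108-32651207, plus) and MYBL2 (chr20:43667014-43667113, plus). The last is a stretch of 30 bases of LIN54 (chr4:83010899-83010928, minus) that holds both elements side by side, before a start that lies inside the gene.
RBL1: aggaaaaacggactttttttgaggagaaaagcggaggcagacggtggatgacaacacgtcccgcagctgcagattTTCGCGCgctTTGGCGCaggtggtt
RBL2: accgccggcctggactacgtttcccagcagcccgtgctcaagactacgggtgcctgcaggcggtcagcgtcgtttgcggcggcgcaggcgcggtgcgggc
LIN37: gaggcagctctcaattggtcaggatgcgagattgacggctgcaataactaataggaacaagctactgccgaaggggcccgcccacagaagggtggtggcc
LIN52: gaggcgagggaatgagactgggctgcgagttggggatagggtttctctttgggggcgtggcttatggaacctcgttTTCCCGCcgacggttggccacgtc
RBBP4: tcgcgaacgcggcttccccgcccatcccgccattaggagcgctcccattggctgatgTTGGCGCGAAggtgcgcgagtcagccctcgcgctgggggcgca
MYBL2: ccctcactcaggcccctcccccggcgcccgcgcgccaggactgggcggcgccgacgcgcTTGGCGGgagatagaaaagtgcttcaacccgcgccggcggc
LIN54: gtgcgTTTGAAggTTGGCGGggcggcggga

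RBL1 had 2 E2F-type matches, starting 25 and 15 bases before its start, and RBBP4 had 2 matches on opposite strands that overlap within one run of capitals. LIN52 had 1 match 24 bases before its start and MYBL2 1 match 41 bases before it. Neither line of RBL2 or LIN37 holds a match. Over all 15 windows of the 9 genes, 8 windows held an E2F-type match, in 6 genes, while 23.7% of all 35116 windows hold one. A CHR match lay in 5 of the 15 windows, in the genes RBL2, LIN9, LIN37 and LIN54, against 16.4% of all windows. The windows are not independent, since the pair of LIN54 windows overlaps and holds the same sites, as does the pair of RBBP4 windows. Of the 7 windows at a gene start, 4 held an E2F-type match and 1 a CHR match. A G at the last N was admitted after a search with C alone there had left MYBL2 without a match, and C alone gives 5 windows in 4 of the genes and 13.0% of all windows. The window listed for RB1 begins at a start far inside the gene and is not shown. The window at the gene start of LIN9, which held neither type of match, is not shown either. A match is a description of letters and says nothing of binding in these cells.

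No gene of the 9 passed the test. Limma's adjusted p for the members ran from 0.266 (LIN52) to 0.979 (LIN54). Of all genes 0.00543% passed an adjusted p of 0.05, which was FN1 alone (fibronectin, log2 difference −5.10, SE 0.46, adjusted p 0.0186). FN1 was dim enough to be left out by the filter on the dimmest genes. Its difference was −1.17 with a floor of 16 (limma adjusted p 0.0741) and −1.65 with an offset of 16 (limma adjusted p 0.0392). FN1 passed in 9 of the 15 alternative settings that included it. Of the members 5 were lower and 4 higher in mean, against 58.6% of all genes lower. RBL2 and LIN52 were lower and LIN37 higher with no overlap between the groups, where the background was 15.3% of genes lower and 7.12% higher with no overlap. At an unadjusted p under 0.05, 3 members were lower (LIN52, RB1 and RBL2) and 0 higher, against 10.8% of genes lower and 2.85% higher (genes higher were 20.8% of all such genes, and 32.5% with centring). The median difference of the 9 members was −0.58, beside −0.21 over all genes. It was −0.20 with array weights, −0.22 without the array labelled RB-deficient 2 and −1.002 without the array labelled RB-deficient 3.

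**Figure D1:**
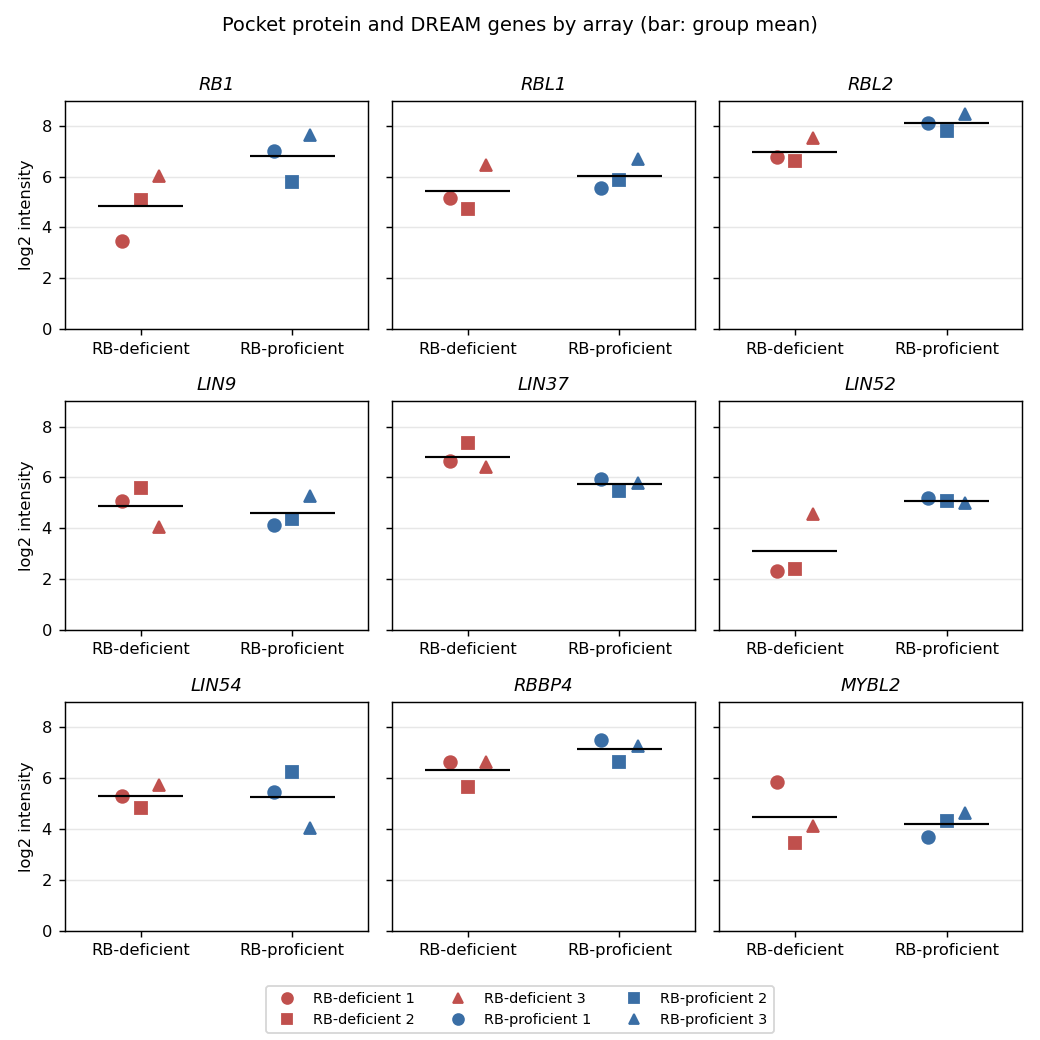
Log2 intensity of each of the 9 genes in every array (vertical axis, log2 scale), with RB-deficient arrays left and RB-proficient arrays right, a symbol for each replicate and a bar at each group mean. RBL2, LIN37 and LIN52 are the 3 genes whose groups do not overlap.

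Among the pocket proteins, RB1, whose product names the groups, gave 3.45, 5.09 and 6.04 in replicates 1 to 3 labelled RB-deficient, against 7.01, 5.77 and 7.65 in RB-proficient replicates 1 to 3. The groups overlapped, since 6.04 in one array labelled RB-deficient exceeds 5.77 in an RB-proficient one, and directions here rest on the labels. Measured from the RB-proficient mean, the 3 arrays labelled RB-deficient stood at −3.36, −1.72 and −0.77. Of these 3, array 3 had the most RB1 and correlated best with the RB-proficient arrays, and a link between the 2 was not tested. The mean difference was −1.95 (SE 0.76, 95% interval −3.65 to −0.25, adjusted p 0.302 in limma's test), and −1.25 without the array labelled RB-deficient 1. Which part of the transcript this probe set reads is not given in the sources used here.

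RBL2 encodes p130, the pocket protein of DREAM in resting cells. It gave 6.78, 6.64 and 7.53 in the arrays labelled RB-deficient, against 8.11, 7.82 and 8.48 in RB-proficient arrays. All 3 of the first set lay below all 3 of the second, with a gap of 0.29 between the nearest values. It averaged 6.98 ± 0.48 in arrays labelled RB-deficient and 8.13 ± 0.33 in RB-proficient arrays (SD, n = 3 each), 2.22-fold lower, and the difference of −1.15 (SE 0.50, 95% interval −2.28 to −0.03) had a limma adjusted p of 0.358. The groups stayed apart in all 16 alternative settings, where the difference ran from −1.42 to −0.95.

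RBL1 encodes p107, the pocket protein that cycling cells make, whose gene is a textbook E2F target. It gave 5.16, 4.73 and 6.47 in the arrays labelled RB-deficient, against 5.54, 5.89 and 6.68 in RB-proficient arrays. The groups overlapped, with the array labelled RB-deficient 3 close to the top of the RB-proficient values. The difference was −0.58 (SE 0.61, 95% interval −1.94 to 0.78, adjusted p 0.686), and it ran from −1.09 to −0.22 as single arrays were left out.

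**Figure D2:**
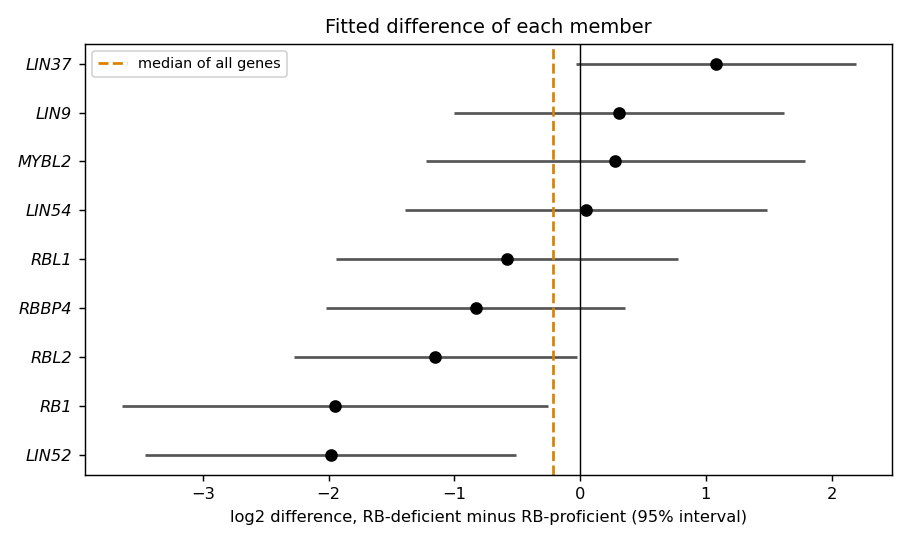
Fitted difference of each gene on the log2 scale (horizontal axis, RB-deficient minus RB-proficient) with its 95% interval from limma, ordered by size, with the median of all genes as a dashed line. The differences run from 1.08 for LIN37 at the top to −1.98 for LIN52 at the bottom, and 3 intervals, those of RBL2, RB1 and LIN52, leave out 0.

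Within the MuvB core, LIN52 was lower and LIN37 higher with no overlap, while LIN9, LIN54 and RBBP4 overlapped between the groups. LIN52 is the small subunit through which the core holds a pocket protein, once DYRK1A has phosphorylated it. It gave 2.32, 2.40 and 4.56 in the arrays labelled RB-deficient, against 5.21, 5.06 and 4.97 in RB-proficient arrays. The arrays labelled RB-deficient 1 and 2 were far below the rest, and array 3 was only 0.41 below the nearest RB-proficient value. LIN52 averaged 3.10 ± 1.27 in the arrays labelled RB-deficient and 5.08 ± 0.12 in RB-proficient arrays (SD, n = 3 each), 3.96-fold lower, with a difference of −1.98 (SE 0.66, 95% interval −3.46 to −0.51, adjusted p 0.266 in limma's test), the smallest p of the 9 genes. Its values were dim, and the difference shrank to −0.89 when the floor was 16 and to −0.94 when 16 was added before log2.

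LIN37 is the subunit that DREAM needs for repression. It gave 6.66, 7.35 and 6.41 in the arrays labelled RB-deficient, against 5.93, 5.47 and 5.78 in RB-proficient arrays. Every array labelled RB-deficient lay above every RB-proficient array, by at least 0.48. It averaged 6.81 ± 0.49 in arrays labelled RB-deficient and 5.73 ± 0.23 in RB-proficient arrays (SD, n = 3 each), 2.12-fold higher. The difference of 1.08 (SE 0.49, 95% interval −0.03 to 2.19) had a limma adjusted p of 0.373, stayed without overlap in all 16 alternative settings and ran there from 0.81 to 1.28.

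Because both genes are read on the same array, multiplying an array by a constant leaves the step between them unchanged. The log2 value of LIN37 minus that of LIN52 came to 4.34, 4.95 and 1.85 in the arrays labelled RB-deficient, against 0.72, 0.41 and 0.80 in RB-proficient arrays. It averaged 3.71 ± 1.64 in the arrays labelled RB-deficient and 0.65 ± 0.21 in RB-proficient arrays (SD, n = 3 each). The gap between these means, 3.07, was 3.06 with quantile normalization but 1.97 when the floor was 16 and 1.83 when 16 was added before log2. The pair was picked after its values were seen, so no test is given, and the size of each value reflects probe brightness as well as RNA.

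**Figure D3:**
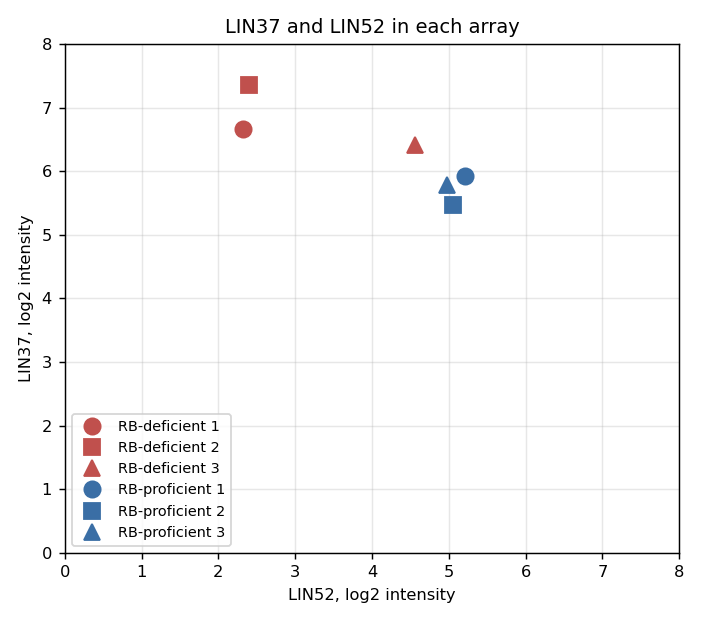
Log2 intensity of LIN37 (vertical axis) against LIN52 (horizontal axis) in each of the 6 arrays, with colours for the groups and symbols for the replicates. The 3 RB-proficient arrays lie together, and the arrays labelled RB-deficient lie above them and to the left, array 3 nearest.

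LIN9, a scaffold of the core, gave 5.07, 5.58 and 4.04 in the arrays labelled RB-deficient, against 4.12, 4.35 and 5.28 in RB-proficient arrays. The groups overlapped throughout, and the difference of 0.31 (SE 0.59, 95% interval −1.01 to 1.62, adjusted p 0.831) was −0.03 without the array labelled RB-deficient 2. LIN54, the DNA-binding subunit, gave 5.32, 4.83 and 5.73 in the arrays labelled RB-deficient, against 5.45, 6.26 and 4.03 in RB-proficient arrays. It was the only one of the 9 genes with the wider spread in RB-proficient arrays (SD 1.13, against 0.45 in the arrays labelled RB-deficient). Its difference was 0.05 (SE 0.64, 95% interval −1.39 to 1.49, adjusted p 0.979), and −0.56 without RB-proficient array 3.

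RBBP4, a histone-binding protein that MuvB shares with several chromatin complexes, gave 6.62, 5.64 and 6.65 in the arrays labelled RB-deficient, against 7.50, 6.63 and 7.28 in RB-proficient arrays. RB-proficient array 2 lay between the arrays labelled RB-deficient 1 and 3, so the groups just overlapped. The difference was −0.83 (SE 0.53, 95% interval −2.02 to 0.35, adjusted p 0.509), and −0.50 without the array labelled RB-deficient 2.

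In complexes other than DREAM that hold RBBP4, 6 of 9 measured genes were lower and 3 higher, 3 of them lower with no overlap, with a median of −0.29. Over all genes 58.6% were lower and 15.3% lower with no overlap, with a median of −0.21. By limma 0 of the 9 passed, and 2 were lower at an unadjusted p under 0.05, against 10.8% of all genes. MTA2, a subunit of the NuRD deacetylase complex, gave 6.07, 3.67 and 6.58 in the arrays labelled RB-deficient, against 7.49, 7.48 and 8.72 in RB-proficient arrays (difference −2.46, SE 0.78, adjusted p 0.252, and −1.58 without the array labelled RB-deficient 2). CHD4, the remodelling ATPase of NuRD, gave 6.09, 5.20 and 6.70 against 7.14, 7.47 and 8.64 in the same order (difference −1.75, SE 0.61, adjusted p 0.277). HAT1, a histone acetyltransferase that works with RBBP proteins, differed by −0.68 (SE 0.50) with no overlap, but overlapped after quantile normalization and after centring, and omitting the array labelled RB-deficient 2 gave −0.39. CHAF1B, of the chromatin assembly factor CAF-1, differed by −1.18 (SE 1.17), and by −2.40 to −0.20 as single arrays were left out. The corepressors of pocket proteins had 5 of 6 genes lower, 2 of them with no overlap, and a median of −1.22. Here too 0 passed by limma, and 2 were lower at an unadjusted p under 0.05, against the same 10.8%. SIN3A, a scaffold for deacetylases, differed by −1.68 (SE 0.53, adjusted p 0.250) and HDAC1, the deacetylase bound by pocket proteins and NuRD, by −1.58 (SE 0.54, adjusted p 0.275), both with no overlap. SIN3B, which joins DREAM, differed by −0.99 (SE 0.68), and by −1.44 to −0.40 as single arrays were left out. SUV39H1, a histone methyltransferase that RB recruits, was at the floor in the array labelled RB-deficient 1 and near it, at 0.32, in RB-proficient array 1. Its difference of −1.44 (SE 1.13) ran from −2.75, without RB-proficient array 1, to −0.56 as single arrays were left out. With a floor of 16 it was −0.23.

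Counted after the values were seen, 5 of the 7 NuRD subunits in these lists were lower and 4 of them had no overlap, namely RBBP7, HDAC1, CHD4 and MTA2, where 58.6% of all genes were lower and 15.3% lower with no overlap. HDAC2 and MTA1, also outside the naming rule, had differences of 0.56 (SE 0.51) and 0.05 (SE 0.71). RBBP7, the close relative of RBBP4, gave 9.22, 8.42 and 9.17 in the arrays labelled RB-deficient, against 9.35, 9.58 and 9.96 in RB-proficient arrays, a difference of −0.69 (SE 0.50, adjusted p 0.560), or −0.43 without the array labelled RB-deficient 2.

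**Figure D4:**
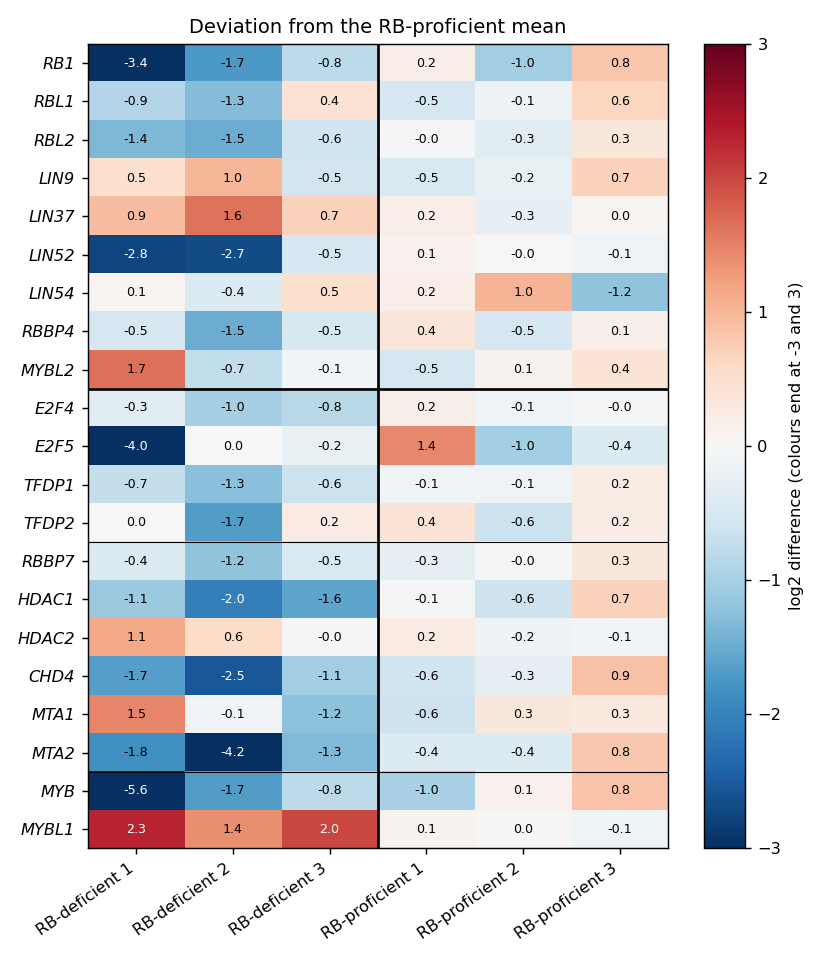
Each array's deviation from the RB-proficient mean (colour and printed value, log2 scale) for the 9 genes, their E2F and DP partners, the NuRD subunits of the lists, and MYB and MYBL1, with RB-deficient arrays left of the line. LIN37 and MYBL1 are above 0 in all 3 arrays labelled RB-deficient, and RB1, RBL2, LIN52, RBBP4, E2F4, TFDP1, RBBP7, HDAC1, CHD4, MTA2 and MYB are below 0 in all 3.

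The DNA-binding partners of the pocket proteins in DREAM were lower in mean, all 4 of them, with a median of −0.80, where 58.6% of all genes were lower. By limma 0 of them passed over all genes, or at an unadjusted p under 0.05. E2F4, the main repressor E2F of DREAM, gave 8.80, 8.14 and 8.31 in the arrays labelled RB-deficient, against 9.32, 8.998 and 9.09 in RB-proficient arrays. TFDP1, the usual DP partner, gave 9.53, 8.999 and 9.63 against 10.14, 10.16 and 10.49 in the same order. Both genes separated the groups, where 15.3% of all genes were lower with no overlap. The differences were −0.72 for E2F4 (SE 0.47, adjusted p 0.527) and −0.87 for TFDP1 (SE 0.47, adjusted p 0.447). E2F5 differed by −1.40 (SE 1.07), but it was near the floor at 0.34 in the array labelled RB-deficient 1, and omitting that array gave −0.11, and TFDP2, another DP partner, by −0.48 (SE 0.64).

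MYBL2 gave 5.86, 3.46 and 4.13 in the arrays labelled RB-deficient, against 3.68, 4.31 and 4.62 in RB-proficient arrays. The array labelled RB-deficient 1 was the highest of all 6 and array 2 the lowest, so the RB-proficient values fell inside the range of the other group. The mean difference was 0.28 (SE 0.67, 95% interval −1.23 to 1.79, adjusted p 0.869), and −0.41 without the array labelled RB-deficient 1.

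The genes that MuvB, MYBL2 and E2F act on can be set beside MYBL2 array by array. As deviations from the RB-proficient mean, MYBL2 stood at 1.66, −0.74 and −0.07 in replicates 1 to 3 labelled RB-deficient. The median of 22 measured G2/M target genes stood at 0.76, −1.34 and −0.46 in the same arrays, and the median of 22 G1/S target genes at 0.33, −0.94 and −0.46. In RB-proficient arrays 1, 2 and 3 the G2/M median was −0.72, −0.10 and 0.82, so it ran from below to above 0 among RB-proficient arrays too. FOXM1, the partner of MYBL2 on mitotic genes, gave 7.48, 6.99 and 7.10 in the arrays labelled RB-deficient, against 6.89, 7.65 and 7.16 in RB-proficient arrays, a difference of −0.04 (SE 0.48) that turned to 0.16 with quantile normalization and 0.09 with centring. PLK1, a mitotic kinase, differed by −1.06 (SE 0.69, and −1.64 to −0.55 as single arrays were left out), CCNA2, cyclin A, by 0.21 (SE 0.74) and CCNF, cyclin F, by −0.19 (SE 0.76).

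**Figure D5:**
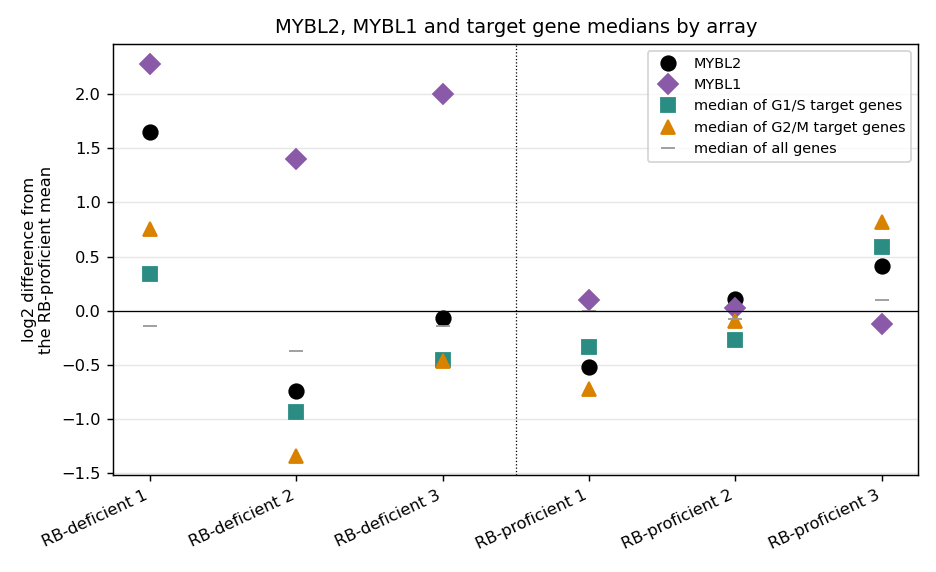
Deviation from the RB-proficient mean (vertical axis, log2 scale) in each array for MYBL2, MYBL1, the medians of the G1/S and G2/M target genes and the median of all genes. MYBL2 and both target medians are above 0 in the array labelled RB-deficient 1 and in RB-proficient array 3, while MYBL1 is above 1 in each array labelled RB-deficient and below 1 in each RB-proficient array.

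In the G1/S target list 15 genes were lower and 7 higher, 2 of them lower with no overlap, with a median of −0.28, where the shares over all genes were 58.6% lower and 15.3% lower with no overlap and the median −0.21. By limma 0 passed, and 3 were lower at an unadjusted p under 0.05, against 10.8% of all genes. MCM5, of the replicative helicase, differed by −2.25 (SE 0.69, adjusted p 0.241) and by −1.48 without RB-proficient array 3, and its groups overlapped with a floor of 16. POLA1, the catalytic subunit of polymerase alpha, differed by −1.66 (SE 0.60), and MCM3 by −1.73 (SE 0.65). CDT1, a licensing factor, differed by −1.32 (SE 0.80), but by −0.33 without the array labelled RB-deficient 2. E2F2, an activator E2F, differed by −0.78 (SE 0.58), by −1.29 without that array and by −0.46 without the array labelled RB-deficient 1.

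In the G2/M target list 16 genes were lower and 6 higher, where 58.6% of all genes were lower. With no overlap 3 were lower, and the median was −0.22, close to the 15.3% of all genes lower with no overlap and the median of −0.21. By limma 0 passed, and the same 3 were lower at an unadjusted p under 0.05, against 10.8% of all genes. The 3 were KIF20A, a mitotic kinesin (difference −2.43, SE 0.81), BUB1, a checkpoint kinase (−1.89, SE 0.64), and CDC25C, the phosphatase that activates CDK1 (−1.49, SE 0.61). None of them stayed apart in every setting, as KIF20A overlapped with centring and with no scaling, BUB1 with centring and CDC25C with a floor of 16. CDC25C was dim, at 1.11, 2.24 and 1.60 in the arrays labelled RB-deficient, against 2.60, 2.63 and 4.19 in RB-proficient arrays. Its difference was −0.064 with a floor of 16, −0.41 with an offset of 16 and −0.96 without RB-proficient array 3. The difference of KIF20A was −1.27 and that of BUB1 −1.20 with an offset of 16. As single arrays were left out, BIRC5, survivin, whose difference was −1.35 (SE 1.04), ran from −2.52 to −0.68, and AURKA, Aurora kinase A, at −0.97 (SE 0.79), from −1.51 to −0.26.

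MYBL2 has relatives MYB and MYBL1. MYBL1, or A-MYB, known chiefly from male germ cells, gave 5.55, 4.67 and 5.27 in the arrays labelled RB-deficient, against 3.37, 3.29 and 3.14 in RB-proficient arrays. All arrays labelled RB-deficient lay above all RB-proficient ones, and the RB-proficient values differed little. The mean was 3.73-fold higher (difference 1.90, SE 0.48, adjusted p 0.210 in limma's test), with no overlap in any of 16 alternative settings, and the difference was 1.16 when the floor was 16 and 1.03 when 16 was added before log2. MYB gave 0, 3.95 and 4.84 against 4.65, 5.75 and 6.47 in the same order, the first value being the floor, and its difference was −2.69 (SE 1.12, adjusted p 0.335), or −1.23 when the array with that value was omitted.

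Among 13 measured kinases, cyclins and CDK inhibitors that act on pocket proteins, 7 were lower and 6 higher, 3 of them lower with no overlap, with a median of −0.07, where all genes gave 58.6% lower, 15.3% lower with no overlap and a median of −0.21. By limma 0 passed, and 3 were lower at an unadjusted p under 0.05, against 10.8% of all genes. CDK4, which phosphorylates pocket proteins with D-type cyclins, gave 6.74, 4.48 and 6.04 in the arrays labelled RB-deficient, against 7.02, 7.67 and 8.73 in RB-proficient arrays (difference −2.05, SE 0.71, adjusted p 0.275). The CDK inhibitor gene CDKN1A, which encodes p21, differed by −2.16 (SE 0.89) and CCND3, cyclin D3, by −1.26 (SE 0.53). CDKN1A was lowest, at 1.21, in the array labelled RB-deficient 1, omitting that array gave −1.05, and its groups overlapped with centring and with no scaling. CDKN2A, the p16 locus known to be lost in MCF10A, was dim, at 2.36, 4.42 and 3.11 in the arrays labelled RB-deficient, against 2.44, 2.30 and 2.94 in RB-proficient arrays. DYRK1A, the kinase of LIN52, is outside the naming rule and was added after its values were seen. It gave 4.42, 5.65 and 6.59 against 6.48, 6.002 and 5.91 in the same order, a difference of −0.58 (SE 0.62).

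Of 4 genes that lie inside or beside members, 3 were lower, where 58.6% of all genes were lower. PSENEN lay on the other side of 0 from its neighbour LIN37. LPAR6, a receptor gene that the GRCh38.p14 annotation places inside RB1 on the other strand, gave 2.85, 4.23 and 4.67 in the arrays labelled RB-deficient, against 6.06, 4.47 and 5.19 in RB-proficient arrays, a difference of −1.32 (SE 0.65, adjusted p 0.402), or −0.79 without the array labelled RB-deficient 1. PSENEN, a gamma-secretase subunit gene that ends 1056 bases before LIN37 on the same strand, gave 1.01, 2.74 and 1.90 in the arrays labelled RB-deficient, against 4.05, 3.58 and 4.24 in RB-proficient arrays. PSENEN was lower with no overlap (difference −2.07, SE 0.57, adjusted p 0.214), as were 15.3% of all genes, while LIN37 was higher. The step from PSENEN to LIN37 within an array averaged 4.92 ± 0.62 in the arrays labelled RB-deficient and 1.77 ± 0.20 in RB-proficient arrays (SD, n = 3 each). All PSENEN values were dim. With a floor of 16 its groups overlapped, its difference was −0.10 and the gap between the 2 mean steps was 1.18, against 3.16. ITM2B and RCBTB2, on either side of RB1, differed by 0.28 (SE 0.50) and −0.41 (SE 0.60).

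The genes whose pattern over the 6 arrays was most like that of RB1 were found by the root mean square distance of log2 values centred on each gene's mean, among 8907 genes with a mean of at least 5. They were KIAA0319L (distance 0.29), TNPO3 (0.30), TRAK2 (0.31), SYNRG (0.31) and ARF3 (0.33). Each had its lowest value in the array labelled RB-deficient 1, as RB1 did, which follows from picking them for closeness to RB1. ARF3 was the 1 of the 5 with no overlap (difference −2.09, SE 0.63, adjusted p 0.233 in limma's test). These values are a description, since the 5 were picked on the same arrays. Among the other members, LIN52 came closest to RB1 (distance 0.74, place 863 of 18416 genes), then RBL2 (0.81, place 1322), RBL1 (1.02, place 3107) and RBBP4 (1.09, place 3859). MYBL2 was the farthest (1.88, place 16042), after LIN37 (1.79), LIN54 (1.70) and LIN9 (1.61).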

How the data were processed

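RNA from 6 samples was hybridised to 1 array each. The submitters' processing notes name Affymetrix Expression Console 1.1, and the deposited table gives each probe set a linear intensity in every array. How the authors summarised and normalized these intensities is not given in the sources used here. Cells were lysed together with their matrix, and WT-Ovation Pico amplified the RNA, per the labels' protocols. Here the arrays were multiplied to share a median of 26.8, values under 1 were raised to 1 and log2 was taken. Of 33297 probe sets, the 19460 with 1 gene symbol in the platform annotation were used, and the brightest on average stood for a gene with several. The test was limma 3.58.1 under R 4.3.3 (a linear model with empirical Bayes, two-sided, no covariates, Benjamini-Hochberg over 18417 genes, threshold 0.05), and the intervals are limma's 95% intervals.

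The members, gene lists and alternatives were chosen with earlier results of these data known. Named from each list were up to 4 genes by smallest p (5 for each target list), all members, the 5 genes most like RB1 and any gene that passed. ACTB and GAPDH stand outside this rule, and other exceptions are marked. Same-numbered arrays did not deviate together (r of −0.12, 0.07 and −0.11 for numbers 1, 2 and 3), so they were not treated as pairs, and no array duplicated another. Tested on data simulated for the same numbers of genes and arrays (18417 genes, 5 runs), limma recovered 0% of changes of 2-fold and 1.2% of those of 4-fold. It recovered 30.4% of those of 8-fold and 73.2% of those of 32-fold. The simulated noise was independent between arrays and of equal SD in both groups, unlike the measured median SDs of 0.84 and 0.40. These shares are therefore only a rough guide to this comparison. The alternatives were quantile normalization, centring, no scaling, a filter on the dimmest 25% of genes, the mean of probe sets, trend and robust, array weights, a replicate block, a floor or an offset of 16, and each array left out.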

Additional observations from a re-analysis of the deposited data

How the results depend on the processing

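In all 16 alternatives 0 of the 9 members passed the adjusted threshold, with the smallest adjusted p at 0.102 (LIN52). RB1, RBL1, RBL2, LIN52 and RBBP4 were lower and LIN37 higher in each of them. With the replicate number as a block the count of genes passed was 1 and the member median −0.58, and the block changed no call. The count of all genes passed was 0 with the dimmest 25% left out, 61 for eBayes with trend and robust, 58 for the floor of 16, 193 for the offset of 16, and 0 to 4 with single arrays left out. With single arrays left out, the difference ran from −0.031 to 0.74 for LIN9, −0.56 to 0.55 for LIN54, −0.41 to 0.79 for MYBL2, −0.84 to 0.13 for TFDP2, −0.52 to 0.69 for CCNA2, −0.93 to 0.44 for CCNF and −0.22 to 0.17 for FOXM1, so each changed sign. LIN54 was −0.018 with the offset of 16, CCNF 0.015 with array weights and 0.13 with a floor of 16, and FOXM1 0.16 with quantile normalization and 0.092 with centring. The cause of these reversals was not tested. The 3 arrays per group limit the precision, and dim genes depend on the floor.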
